A study of Mus musculus with 4 samples.

Results

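The replication-dependent histone genes encode the core histones H2A, H2B, H3 and H4, around which DNA is wound, and the linker histone H1, which sits on the DNA between nucleosomes. They were taken as every gene in the deposited expression table whose symbol starts with Hist1h, Hist2h, Hist3h or Hist4h, and 69 of 24499 genes met that rule. The cells were wild-type (WT) growth plate-like chondrocytes (GPLC), a mouse cell line, sampled after 1, 3, 5 and 10 days of culture in DMEM with 10% fetal bovine serum, antibiotics, ascorbic acid and insulin/transferrin/selenium. The days differed in culture time, with no genotype or agent set apart. Total RNA, which the labels describe as taken from sorted cells without naming a gate, was depleted of ribosomal RNA rather than selected by poly(A) tail before sequencing.

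The labels name 1 sample per day, while the table holds 3 libraries of day 1 (numbered 1, 3 and 4) and 4 libraries each of days 3, 5 and 10 (numbered 1 to 4), with 12492537 to 18841621 reads in genes per library. Whether libraries of 1 day stem from different cultures is not stated, so a p-value here reflects library-to-library spread alone, possibly technical, in 1 cell line. Chondrocyte markers were present at differing levels: Col2a1, the main cartilage collagen, ranged over 1262 to 20254 CPM (read counts scaled to the library's size), while Matn1, a cartilage matrix gene, had 1.16, 0.791 and 0.742 CPM in the day 1 libraries and up to 256 CPM at day 3. Osteoblast and fibroblast genes were present too. The levels of a library in the listed osteoblast genes summed to 8052 to 12076 CPM at day 1, 5293 to 10424 at day 3, 5807 to 10225 at day 5 and 8810 to 65256 at day 10, and those in the fibroblast genes to 3161 to 3531, 4023 to 6444, 6186 to 8502 and 6124 to 14538 CPM on the same days. Most of the day 1 osteoblast sum was Col1a1, at 11509, 9426 and 7652 CPM. Runx2 (183 to 241 CPM), Spp1 (167 to 303) and Alpl (21.5 to 49.1) were present at day 1. Sp7 was at most 3.60 CPM there, and Ibsp, Bglap, Bglap2, Phex and Dmp1 were at most 0.433 CPM. The chondrocyte list summed to 5022 to 5776, 12226 to 29095, 3119 to 8820 and 3305 to 16641 CPM. Macrophage genes summed to at most 7.38 CPM, with Adgre1 and Itgam at 0 in every library, endothelial genes to at most 0.753 CPM with Tie1 at 0, and muscle genes to at most 1.05 CPM with Myod1, Myog and Ckm at 0. Adipocyte genes summed to between 21.9 and 49.5 CPM, mostly from Pparg and Lpl, while Adipoq, Plin1 and Cidec were at most 1.96 CPM in any library. At day 10 against day 1, 7 of 10 osteoblast, 4 of 6 tested fibroblast and 4 of 14 chondrocyte genes were higher by limma, and 0, 1 and 3 were lower. Of all genes tested, 24.3% were higher and 25.1% lower, and the chondrocyte counts lay near these shares. The part of these cell-type lists in the histone differences was not tested.

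A cell needs new histones when it copies its DNA, and these genes are transcribed and their mRNAs kept mainly during S phase. Unlike other mRNAs, most of their transcripts carry no introns and end in a short stem-loop instead of a poly(A) tail. The stem-loop binding protein SLBP holds that element and takes part in processing, translation and decay of the mRNA, NPAT drives transcription at the histone loci, and a cleavage complex guided by the U7 small RNA cuts the transcript. Some of these genes also give polyadenylated transcripts in cells that have stopped dividing. In the growth plate, chondrocytes divide in columns before they leave the cell cycle and enlarge.

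The stem-loop was read from the annotated transcripts (GENCODE M21, GRCm38), and a perfect copy, with a 6-base stem starting GG and a 4-base loop starting TT, stood after the coding end in 44 of the 69 genes. It was searched for only on the transcribed strand. These examples are shown because they cover each form found and the genes the results turn on, with the stem-loop in capitals, 5′ to 3′ as DNA letters:
Hist1h1c (chr13:23739502-23739531, plus strand): caatccaaaaGGCTCTTTTCAGAGCCacca
Hist1h2bk (chr13:22036290-22036319, plus strand): tagcaccaaaGGCTCTTTTAAGAGCCacta
Hist2h2ac (chr3:96220414-96220443, minus strand): aatccaaaaaGGCTCTTTTTAGAGCCacca
Hist1h4d (chr13:23581940-23581969, plus strand): aaaaaccaaaGGCCCTTTTCAGGGCCacta
Hist1h4b (chr13:23757356-23757385, plus strand): tgttacaaaaGGTCCTTTTCAGGACCactc
Hist4h4 (chr6:136803994-136804023, minus strand): catccacaaaGGCCCTTTTCAGGGCCcaca
Hist1h4i (chr13:22040962-22040991, minus strand): gctacttaaaGGCCCTTTTTAGGGCCacca
The form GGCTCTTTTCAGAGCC was the most frequent, in 26 genes of the H1, H2A, H2B and H3 families. The form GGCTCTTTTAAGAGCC was found in 6 genes and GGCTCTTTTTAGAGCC in 1. H4 genes had other stems: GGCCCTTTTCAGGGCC in 7, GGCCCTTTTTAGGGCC in 2 and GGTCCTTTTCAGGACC in 2. A gene without a match lacks these letters in its annotated transcript, which may be cut short of them.

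Promoters are shown for 4 members, since histone families are known for family-specific promoter elements. RefSeq (GRCm38.p6) gave a promoter for 62 of the 69 genes. The lines run from 150 bases before to 10 bases after the annotated start, and the capitals mark the searched motifs on either strand:
Hist1h1b (chr13:21780616-21780775, minus strand): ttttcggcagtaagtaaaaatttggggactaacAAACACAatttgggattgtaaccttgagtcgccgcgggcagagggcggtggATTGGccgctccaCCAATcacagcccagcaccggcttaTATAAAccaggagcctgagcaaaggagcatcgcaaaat
Hist1h1c (chr13:23738657-23738816, plus strand): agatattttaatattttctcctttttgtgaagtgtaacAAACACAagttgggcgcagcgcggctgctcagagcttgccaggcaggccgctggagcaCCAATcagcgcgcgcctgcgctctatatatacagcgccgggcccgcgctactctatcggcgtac
Hist1h2bk (chr13:22035671-22035830, plus strand): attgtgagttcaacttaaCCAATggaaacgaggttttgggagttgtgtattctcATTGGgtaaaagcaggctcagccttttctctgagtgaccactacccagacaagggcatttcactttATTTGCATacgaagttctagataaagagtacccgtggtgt
Hist1h4d (chr13:23581418-23581577, plus strand): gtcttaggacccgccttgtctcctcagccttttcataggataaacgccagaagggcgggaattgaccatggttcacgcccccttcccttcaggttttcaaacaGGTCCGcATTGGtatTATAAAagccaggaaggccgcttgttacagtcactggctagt
The motifs were counted on both strands of the whole RefSeq window, from 250 bases before to 50 after the start, and CCAAT can lie within or beside another motif. H2A and H2B genes that start close together on opposite strands have overlapping windows, so 1 motif can count for both families. In Hist1h2ae and Hist1h2bg, for example, the ATTTGCAT counted for each is the same site read on opposite strands. ATTTGCAT, the octamer known from H2B promoters as the site of Oct-1 (Pou2f1), was in 6 of 16 H2B and 7 of 18 H2A promoters and in 1.74% of all 32851 promoters. AAACACA, the H1 box, was in 5 of 6 H1 promoters, against 7.18% of all promoters. GGTCCG, the core of the H4 element bound by HiNF-P, was in 11 of 12 H4 promoters, against 8.25% of all promoters. CCAAT was in every H1, H2A, H2B and H3 promoter matched (6, 18, 16 and 10) and in 3 of 12 H4 promoters, against 37.4% of all. TATAAA was in 4 of 6 H1, 11 of 18 H2A, 8 of 16 H2B, 4 of 10 H3 and 8 of 12 H4 promoters, against 13.6% of all. A match is a description of the letters and says nothing on use of the site in these cells.

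Of the 69 genes, 55 lie in the Hist1 cluster on chromosome 13, 10 in Hist2 on chromosome 3, 3 in Hist3 on chromosome 11 and 1, Hist4h4, on chromosome 6. They make up 6 H1, 19 H2A, 19 H2B, 12 H3 and 13 H4 genes, and 67 are annotated as protein coding. Hist1h2ao, Hist1h2ba and Hist1h2br had no read in any library, and 12 others had reads but stayed under the filter of a mean of 1 CPM over the day means. The remaining 54 (5 H1, 13 H2A, 14 H2B, 10 H3 and 12 H4) were tested among 12109 genes. Of the 50-base stretches in Hist1h2ao and Hist1h2br, 6.5% and 11.3% were their own among the annotated transcripts, against 61.8% for Hist1h2ba. Among the genes under the filter this share ran from 0% (such as Hist2h2aa1) to 100% (Hist1h1t). How shared reads were counted is not given, so few or no reads need not mean that a gene with near-identical copies was silent. The testis histone genes stayed under the filter: Hist1h1t had 34 reads over all libraries, Hist1h2aa 4 and Hist1h2ba 0. At the filter itself, Hist1h4n stood just above it with day means of 2.11, 1.03, 1.36 and 1.43 CPM at days 1, 3, 5 and 10, and Hist3h2bb-ps, a pseudogene, just below it with 0.371, 0.227, 0.164 and 0.183 CPM.

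Among the 54 tested genes, the day 1 level per kilobase of annotated exon ran from 1.24 CPM per kb for Hist2h2be to 1285 CPM per kb for Hist2h2bb. Hist1h4k (998 CPM per kb), Hist1h4h (845), Hist1h4d (808) and Hist1h2bn (693) followed at the top of the day 1 levels, and Hist1h4n (4.91) stood next to Hist2h2be at the bottom. Near-identical copies limit these levels: 25 of the 54 tested genes had fewer than 50% of their 50-base stretches to themselves among the annotated transcripts, and Hist2h2bb had 0%, since a longer annotated gene, Gm20628, spans it. Hist1h2be overlaps Hist1h1e in the annotation. No source used here gives how the counting treated shared reads or strand, and values of single genes of this kind are uncertain. In the 25 genes below 50% the median day 10 minus day 1 difference on the log2(CPM + 1) scale was -1.35, against -1.38 in the other 29.

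Summed over the 69 genes, the histone level was lower in every later library than in any day 1 library. The sum was 10686, 9078 and 10223 CPM in the day 1 libraries, 4310, 8179, 6797 and 6933 CPM at day 3, 3589, 3542, 3382 and 3240 CPM at day 5 and 4512, 5423, 3240 and 2548 CPM at day 10. Day 5 was tight, and day 10 spread more widely and overlapped both day 3 and day 5. As means the sums were 9996 ± 828 (SD, n = 3) at day 1, 6555 ± 1620 at day 3, 3438 ± 159 at day 5 and 3931 ± 1285 CPM at day 10 (n = 4 each). Day 3 had 0.656, day 5 0.344 and day 10 0.393 times the day 1 mean, with no test over the sum. In bulk RNA, fewer cells in S phase and less histone mRNA per cell cannot be told apart.

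**Figure D1:**
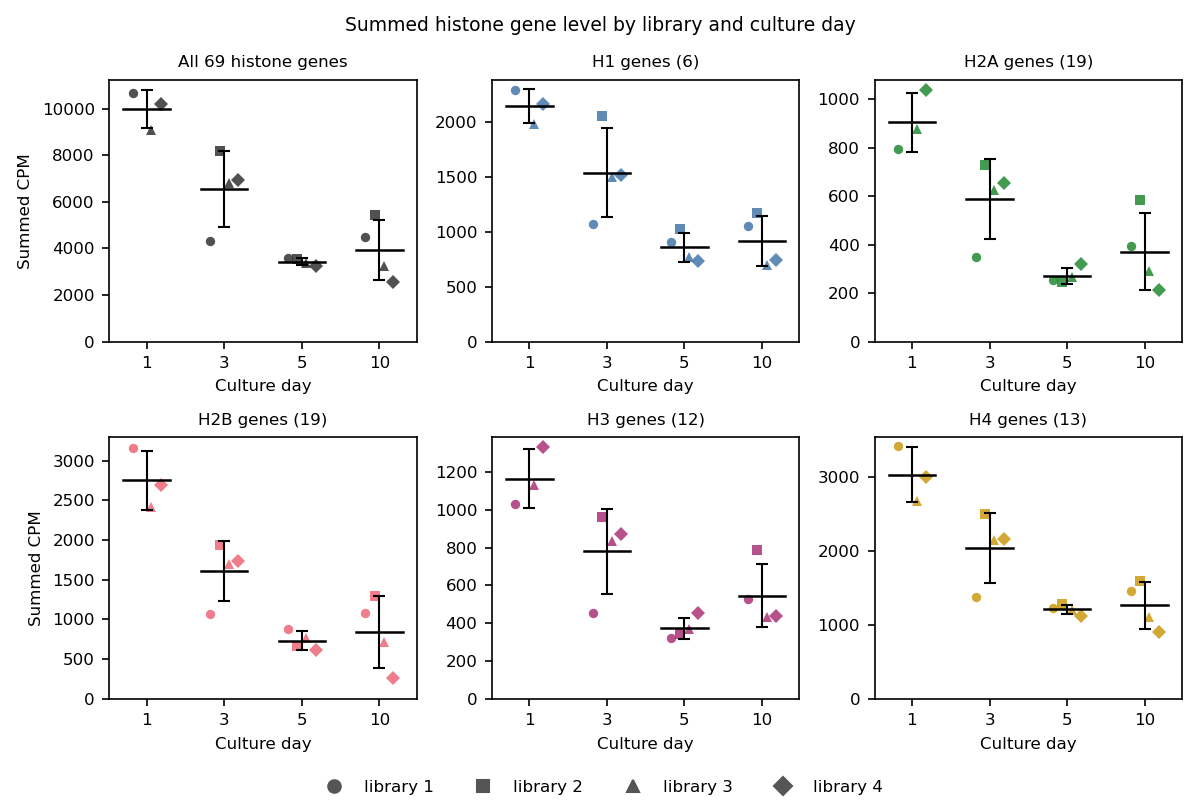
Summed CPM of all 69 histone genes and of each family (y axis, linear from 0) at culture days 1, 3, 5 and 10 (x axis). Symbols are single libraries by library number, black lines the mean and bars the SD (n = 3 at day 1, 4 on the other days); the total is 9078 CPM or more at day 1 and 5423 CPM or less at day 10.

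The differences were spread over all families. In the day 10 against day 1 comparison, 50 of the 54 tested genes were lower and 0 higher (limma, adjusted p at or under 0.05 over all 12109 genes), where 25.1% of all genes tested were lower and 24.3% higher. Against day 1, day 5 also had 50 lower and 0 higher, where 24.8% of all genes were lower and 25.2% higher. edgeR and DESeq2 called 48 and 49 lower at day 10 and 50 and 50 at day 5. The median difference of the 54 genes was -1.38 on the log2(CPM + 1) scale for day 10 and -1.64 for day 5, against -0.01 and 0.01 over all genes tested. At least 2-fold lower were 44 genes at day 10 and 48 at day 5, where 6.11% and 6.39% of all genes were, and every later library was below every day 1 library for 48 genes at day 10 (27.3% of all genes) and 50 at day 5 (30.1%). These comparisons, and that of day 3, share the day 1 libraries. With libraries 1 and 2 alone, which leaves 1 library at day 1, the lower genes were 3 at day 10 and 27 at day 5, and with libraries 3 and 4 alone they were 51 and 50.

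**Figure D2:**
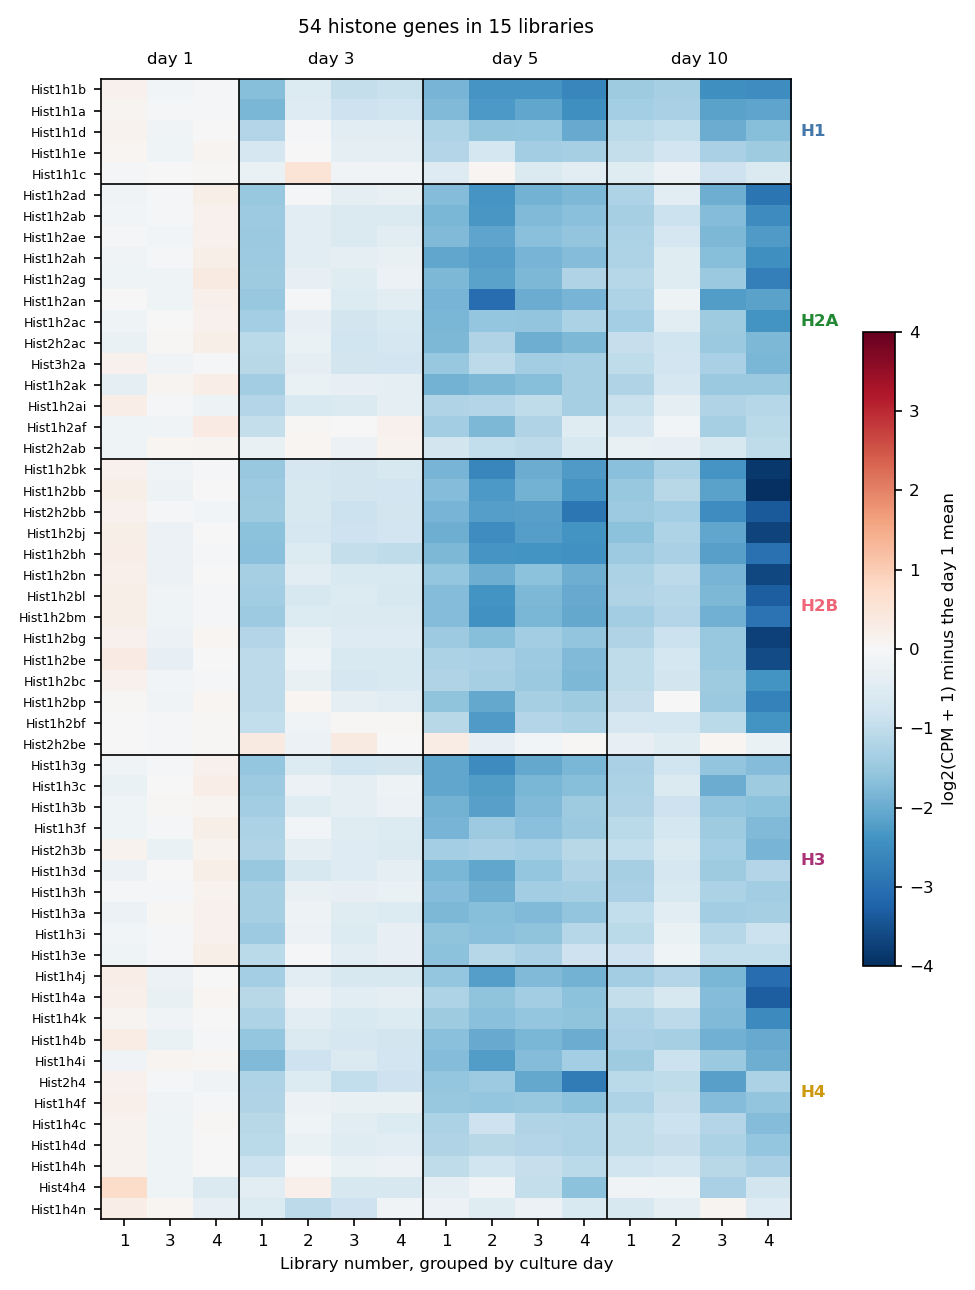
Colour gives log2(CPM + 1) of each of the 54 tested histone genes (rows, grouped by family) minus its day 1 mean in each of 15 libraries (columns, grouped by day 1, 3, 5 and 10). Most rows are blue at days 5 and 10, Hist2h2be and Hist1h1c are paler, and most H2B rows are darkest in library 4 of day 10, whose H2B median was -3.34.

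The linker histone genes split by gene. Hist1h1a and Hist1h1b, which encode H1.1 and H1.5 and were picked out after their values were seen, fell most among the H1 genes. Hist1h1b had 557, 452 and 467 CPM in the day 1 libraries, 151, 333, 252 and 266 CPM at day 3, 133, 94.9, 94.8 and 78.8 CPM at day 5 and 183, 193, 88.1 and 87.4 CPM at day 10. All of its later libraries were below all day 1 libraries, and the day 10 minus day 1 difference was -1.92 (SE 0.302, limma, adjusted p = 0.000114). For Hist1h1a the difference was -1.72 (SE 0.281, limma, adjusted p = 0.000156), with day means of 328 ± 24.7 CPM (SD, n = 3) at day 1, 174 ± 58.4 at day 3, 74.9 ± 16.04 at day 5 and 102 ± 32.6 at day 10 (SD, n = 4 each). Both were already lower at day 3 than at day 1, with log2 differences of -0.98 for Hist1h1a and -1.02 for Hist1h1b (adjusted p = 0.0155 and 0.0184, limma).

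Hist1h1d had 478, 391 and 439 CPM in the day 1 libraries, 194, 422, 324 and 326 CPM at day 3, 184, 146, 147 and 107 CPM at day 5 and 206, 217, 109.6 and 131 CPM at day 10. This gene for H1.3 was below every day 1 library in all day 5 and day 10 libraries and overlapped day 1 at day 3, with -1.44 (SE 0.266, limma, adjusted p = 0.000434) for day 10 minus day 1. Hist1h1e, the gene for H1.4, differed by -1.10 (SE 0.195, limma, adjusted p = 0.000306) for day 10 minus day 1 and by -1.14 for day 5 minus day 1.

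Hist1h1c, the gene for H1.2, which is known to give both stem-loop and polyadenylated mRNA, had the smallest day 10 minus day 1 difference of the H1 genes. Hist1h1c had 385, 392 and 412 CPM in the day 1 libraries, 329.8, 577, 361 and 356 CPM at day 3, 275, 416, 268 and 297 CPM at day 5 and 283, 336, 223 and 267 CPM at day 10. Its day 3 and day 5 libraries overlapped day 1, with library 2 the highest of each of these days, and all day 10 libraries were below day 1. The difference was -0.36 (SE 0.196, limma, adjusted p = 0.141) for day 5 minus day 1, which did not pass, and -0.53 (SE 0.196, limma, adjusted p = 0.0357) for day 10 minus day 1, which did. That day 10 call was lost in edgeR's quasi-likelihood test (adjusted p = 0.0525) and without library 1, 3 or 4 of day 1 (0.0704, 0.0775 and 0.0994) or library 1, 3 or 4 of day 10 (0.0532, 0.0984 and 0.0595). It was also lost in limma with no filter on low values (adjusted p = 0.0548). Leaving out the libraries numbered 1, 3 or 4 on all days lost it too (limma, adjusted p = 0.109, 0.206 and 0.181). The call stayed in DESeq2 (adjusted p = 0.0356). It also stayed in limma without the libraries numbered 2 on all days (adjusted p = 0.000267) and with libraries 3 and 4 alone (adjusted p = 0.00161). With libraries 1 and 2 alone, which leaves 1 library at day 1, the difference was -0.32.

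As a share of the summed H1 level, Hist1h1c stood at 18.6% at day 1, 26.6% at day 3, 36.5% at day 5 and 30.9% at day 10. Its share was 26.9 to 35.9% in the day 10 libraries and 16.8 to 19.8% in the day 1 libraries, so the days did not overlap. Hist1h1b held 22.9% at day 1, 16.1% at day 3, 11.7% at day 5 and 14.6% at day 10. These shares are of CPM, not per length, and were not tested.

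**Figure D3:**
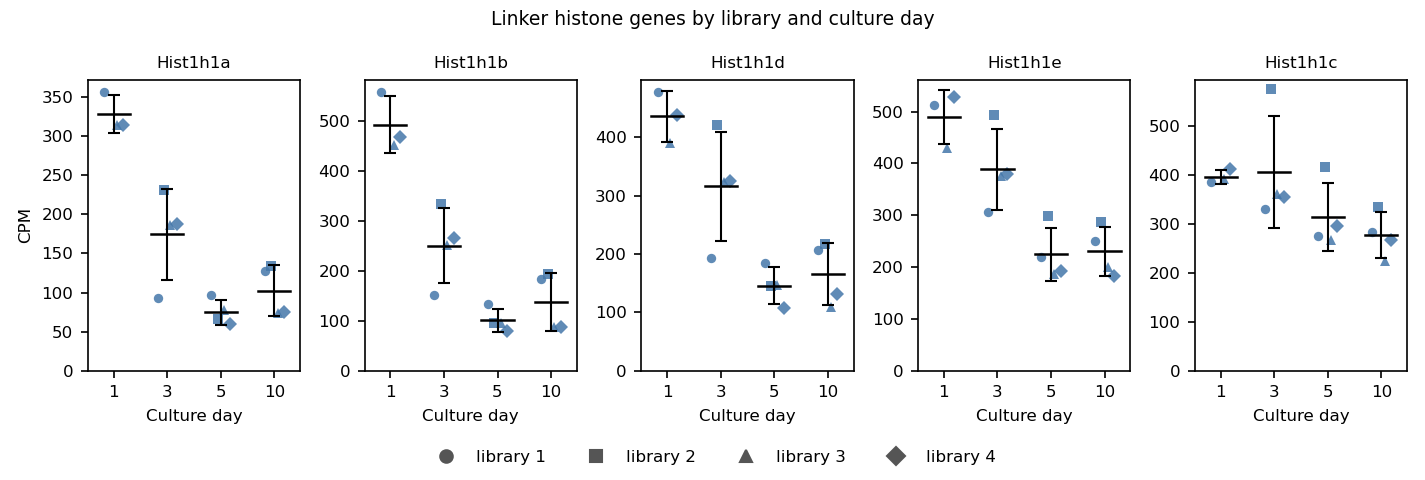
CPM (y axes, linear from 0, scaled per panel) of the 5 tested linker histone genes at culture days 1, 3, 5 and 10. Symbols are libraries, black lines means and bars SD; Hist1h1c at day 5 averages 314 CPM against 396 CPM at day 1, while Hist1h1b at day 5 averages 100.4 CPM against 492 CPM at day 1.

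Among the H2A genes, 13 of 13 were lower at day 5 and 12 of 13 at day 10, each against day 1, with medians of -1.69 and -1.41. Hist1h2ab had 173, 179 and 212 CPM in the day 1 libraries, 67.1, 139, 125 and 125 CPM at day 3, 51.9, 36.8, 53.96 and 57.7 CPM at day 5 and 74.6, 103, 55.1 and 32.2 CPM at day 10. Every day 5 and day 10 library of this H2A gene was below every day 1 library, with -1.60 (SE 0.315, limma, adjusted p = 0.000694) for day 10 minus day 1. Hist1h2ak differed by -1.21 (SE 0.261, limma, adjusted p = 0.0014) and Hist2h2ac by -1.25 (SE 0.251, limma, adjusted p = 0.000857). Hist1h2af, at 25.1 ± 10.07 CPM at day 10 (SD, n = 4) and 42.6 ± 9.01 CPM at day 1 (SD, n = 3), was the H2A gene not called at day 10, with -0.80 (SE 0.334, limma, adjusted p = 0.0602); 6% of its 50-base stretches are its own.

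The H2B genes had the lowest median, -1.87 at day 5 and -1.86 at day 10 against day 1, with 13 of 14 lower in each comparison. Hist1h2bk had 224, 181 and 193 CPM in the day 1 libraries, 69.4, 124, 120.1 and 128 CPM at day 3, 53.7, 32.1, 48.96 and 40.99 CPM at day 5 and 62.2, 82.2, 38.3 and 12.8 CPM at day 10. Hist1h2bk had the lowest day 10 minus day 1 value of the 54 genes, -2.28 (SE 0.435, limma, adjusted p = 0.000555), and its day 10 and day 1 libraries did not overlap. Hist2h2bb had 546, 466 and 456 CPM in the day 1 libraries, 182, 314, 268 and 291 CPM at day 3, 135, 106, 107 and 65.3 CPM at day 5 and 177, 188, 86.9 and 46.2 CPM at day 10. Hist2h2bb differed by -2.17 (SE 0.382, limma, adjusted p = 0.000298). Hist1h2bb had -2.22 (SE 0.487, limma, adjusted p = 0.00163) and Hist1h2bg with -1.82 (SE 0.469, limma, adjusted p = 0.00488).

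Library 4 of day 10 stood apart in this family. Hist1h2bg had 286, 219 and 269 CPM in the day 1 libraries, 114, 212, 179.5 and 179 CPM at day 3, 92.7, 78.5, 96.6 and 84.3 CPM at day 5 and 112, 141, 89.4 and 18.5 CPM at day 10. The last of the day 10 values is a fraction of the others, and the same library was the lowest of all 15 for 13 of 14 H2B genes, 7 of 13 H2A, 6 of 12 H4, 1 of 10 H3 and 1 of 5 H1 genes. Its level over the mean of the other 3 day 10 libraries had a median of 0.235 for H2B, 0.456 for H2A, 0.706 for H4, 0.741 for H3 and 0.740 for H1. H2B made up 10.13% of the summed histone level there, against 22.1 to 23.9% in the other day 10 libraries. That library had 14544289 reads and Col2a1 at 12719 CPM, against 1262 to 5271 CPM in the other day 10 libraries, and their part in the H2B values was not tested. Without it, the H2B median for day 10 minus day 1 was -1.39, with 12 of 14 lower, and the median of the 54 genes was -1.13, with 46 lower.

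**Figure D4:**
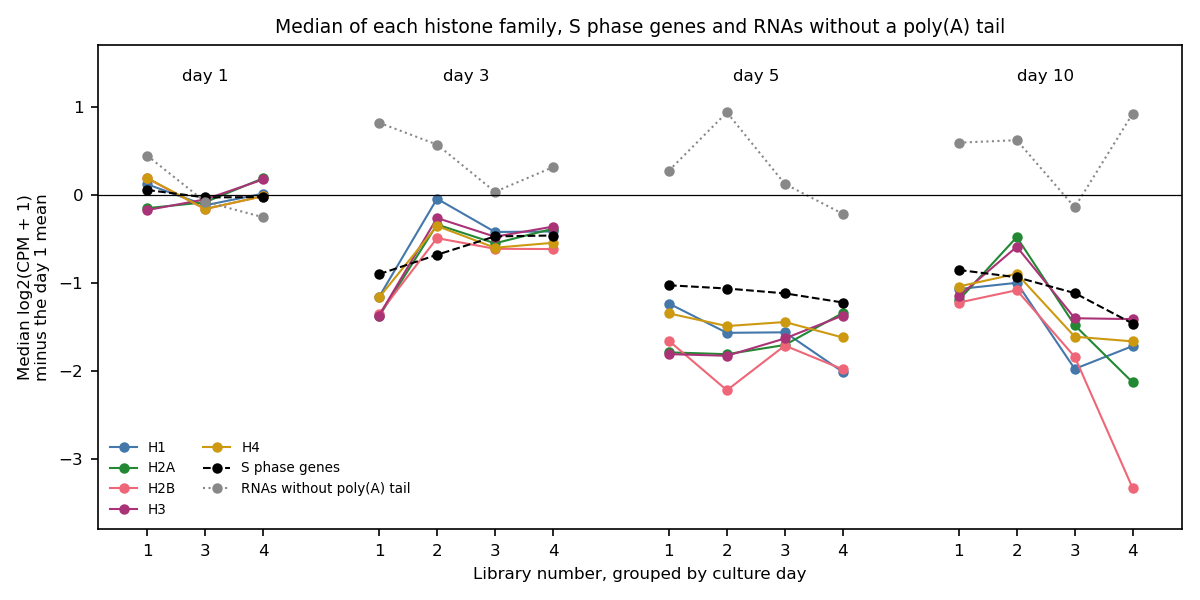
Median log2(CPM + 1) minus the day 1 mean (y axis) in each library (x axis, grouped by day 1, 3, 5 and 10) for the tested genes of each histone family, the 31 S phase genes and the 10 tested RNAs without a poly(A) tail. H2B in library 4 of day 10 is at -3.34, while S phase genes in that library are at -1.46.

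All 10 tested H3 genes were lower at day 5 and at day 10 than at day 1, with medians of -1.64 and -1.17. Hist1h3f had 210.1, 224 and 279 CPM in the day 1 libraries, 96.6, 217, 169 and 159.8 CPM at day 3, 64.8, 84.9, 73.7 and 83.95 CPM at day 5 and 110.5, 144, 87.2 and 68.8 CPM at day 10. Both later days were below every day 1 library, with -1.25 (SE 0.251, limma, adjusted p = 0.000847) for day 10 minus day 1. Hist1h3c differed by -1.32 (SE 0.313, limma, adjusted p = 0.00285) and Hist1h3e by -0.74 (SE 0.247, limma, adjusted p = 0.0212). Hist1h3e overlapped between day 10 and day 1, since library 2 of day 10 stood at 157 CPM, against 156 CPM in library 1 of day 1.

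Of the 12 tested H4 genes, 10 were lower at each of days 5 and 10 than at day 1, with medians of -1.51 and -1.38. Hist1h4d had 1014, 819 and 926 CPM in the day 1 libraries, 431, 765, 652 and 667 CPM at day 3, 393, 421, 403 and 387 CPM at day 5 and 455, 482, 379 and 316 CPM at day 10. Its day 5 and day 10 libraries lay below every day 1 library, and the difference was -1.19 (SE 0.181, limma, adjusted p = 9.09e-05) for day 10 minus day 1. Hist1h4h differed by -0.97 (SE 0.179, limma, adjusted p = 0.000434) and Hist1h4c by -1.200 (SE 0.215, limma, adjusted p = 0.000339).

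**Figure D5:**
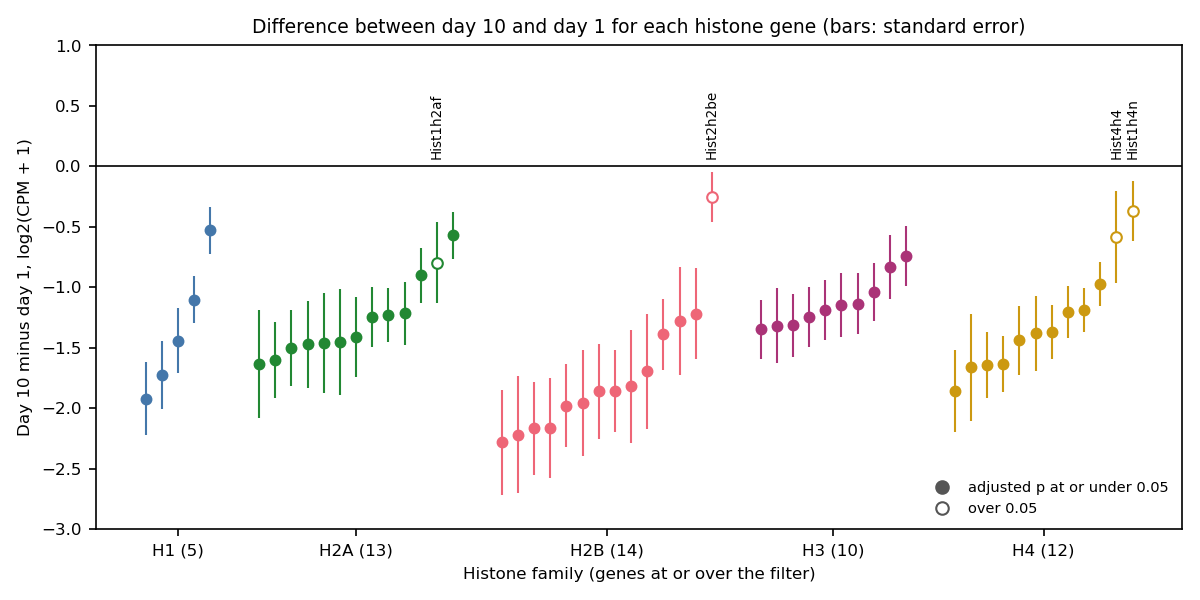
Day 10 minus day 1 on the log2(CPM + 1) scale (y axis) for each of the 54 tested genes, ordered within family (x axis), with the standard error as bars. Filled points passed an adjusted p of 0.05 in limma, and the 4 open points, Hist1h2af, Hist2h2be, Hist4h4 and Hist1h4n, did not.

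Hist2h2be had a low level that did not pass in any comparison. Hist2h2be had 3.29, 3.02 and 3.402 CPM in the day 1 libraries, 4.42, 2.597, 4.39 and 3.21 CPM at day 3, 4.22, 2.36, 2.93 and 3.42 CPM at day 5 and 2.34, 2.01, 3.45 and 2.56 CPM at day 10. All days overlapped, and day 10 minus day 1 was -0.25 (SE 0.203, limma, adjusted p = 0.316). The human gene of this name is known for polyadenylated transcripts in non-dividing cells. Its annotated start lies 239 bases from that of Hist2h2ac, which is transcribed the other way and was -1.68 (SE 0.251, limma, adjusted p = 7.46e-05) for day 5 minus day 1, against -0.02 for Hist2h2be; the difference between the pair was not tested.

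Hist4h4 and Hist1h4n also missed the threshold. Hist4h4 had 72.1, 37.6 and 28.4 CPM in the day 1 libraries, 31.5, 49.1, 26.99 and 26.9 CPM at day 3, 32.8, 38.7, 21.7 and 12.9 CPM at day 5 and 38.5, 38.00, 16.6 and 25.4 CPM at day 10. Day 1 itself spread widely for Hist4h4, which has 2445 annotated bases after its stem-loop, and day 10 minus day 1 was -0.58 (SE 0.384, limma, adjusted p = 0.221). Hist1h4n gave -0.37 (SE 0.252, limma, adjusted p = 0.238) at a level near the filter. Hist1h2bc, the remaining gene of the list of members with known polyadenylated forms (Hist1h1c, Hist1h2bc, Hist2h2be and Hist4h4), did fall, with -1.39 (SE 0.292, limma, adjusted p = 0.00118). In that list of 4, 2 were lower at day 10 and 1 at day 5 against day 1, where 25.1% and 24.8% of all genes tested were lower. The median was -1.21 for the 12 tested genes with 400 or more annotated bases after the stem-loop, -1.44 for the 23 with fewer and -1.39 for the 19 without a perfect stem-loop, all for day 10 minus day 1.

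Divergent neighbours gave both members of a pair at similar or different values. Of 28 genes with a histone gene starting on the other strand 173 to 660 bases away, 21 were tested and 20 were lower at day 10 than at day 1, with a median of -1.45, against 30 of 33 and -1.32 for genes without such a neighbour. Hist1h2ac and Hist1h2bc, 251 bases apart, differed by -1.41 and -1.39 for day 10 minus day 1. Hist1h2ah and Hist1h2bk, 302 bases apart, differed by -1.47 and -2.28. Both pairs were picked out after their values were seen. Of the tested pairs, the first had the most similar log2 differences for day 10 minus day 1, not the closest starts. Genes of the Hist1 cluster had a median of -1.42, with 44 of 46 lower, and those of Hist2 -1.22, with 5 of 6 lower.

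Fewer genes were called at day 3, and the count moved with the libraries used. At day 3 against day 1, 13 of 54 genes were lower and 0 higher by limma, where 16.1% of all genes tested were lower and 15.7% higher, and the median was -0.64. For 33 genes every day 3 library was below every day 1 library, where 26.4% of all genes were, and 2 were at least 2-fold lower, where 2.93% of all genes were. Hist1h2bb had 382, 281 and 319 CPM in the day 1 libraries, 118, 209.6, 193 and 192 CPM at day 3, 97.4, 65.5, 87.3 and 62.3 CPM at day 5 and 112, 149.7, 72.9 and 18.1 CPM at day 10, and this difference of -0.89 did not pass at day 3 (limma, adjusted p = 0.177). Library 1 of day 3 was the lowest of its day for 51 of the 54 genes, and without it 4 were lower and the median was -0.45. The count was 3, 7 and 5 without library 1, 3 or 4 of day 1, 21 without library 2 of day 10 and 31 without library 4 of day 10, which enter through the shared spread. With no filter on low values, 7 of 66 genes with a read were lower, where 1843 of all 17961 genes were.

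Day 5 against day 3 had 32 of 54 genes lower and 0 higher by limma, where 4.03% of all genes tested were lower and 5.1% higher, and the median was -1.03. By family, 4 of 5 H1, 8 of 13 H2A, 5 of 14 H2B, 8 of 10 H3 and 7 of 12 H4 genes were lower. Hist1h1b had -1.28 (SE 0.279, limma, adjusted p = 0.0129) and Hist1h3c -1.40 (SE 0.2901, limma, adjusted p = 0.00985) for day 5 minus day 3. The count was 16, 8 and 7 without library 2, 3 or 4 of day 3 and 16, 12 and 15 without library 2, 3 or 4 of day 5, and it was 48 without library 4 of day 10. For 35 genes every day 5 library was below every day 3 library, where 9.04% of all genes were, and 30 were at least 2-fold lower, where 1.26% were. With no filter on low values, 17 of 66 genes were lower, where 1.84% of all genes were.

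Day 10 against day 5 had 0 of 54 genes lower and 0 higher by limma, where 2.02% of all genes tested were lower and 3.75% higher, and 5 genes had an unadjusted p under 0.05, all of them H3 genes with higher values at day 10. edgeR called 1 gene higher and DESeq2 3, with 8 and 13 at an unadjusted p under 0.05. For 3 genes, Hist1h3a, Hist1h3g and Hist1h3i, every day 10 library was above every day 5 library, where 6.22% of all genes were. The median for day 10 minus day 5 was 0.51 in H3, 0.30 in H2A, 0.15 in H1, 0.08 in H2B and 0.01 in H4, with no test between families. Hist1h3g had 84.4, 89.2 and 104 CPM in the day 1 libraries, 30.8, 62.9, 52.9 and 55.6 CPM at day 3, 21.3, 15.2, 21.4 and 25.05 CPM at day 5 and 37.04, 52.4, 30.5 and 27.1 CPM at day 10. Hist1h3g, picked out after its values were seen, had 0.77 (SE 0.225, limma, adjusted p = 0.0565) for day 10 minus day 5. Without library 1 of day 3, 3 H3 genes were called higher at day 10 than at day 5, and 1 without library 3 or library 4 of day 10.

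Day 10 against day 3 had 20 of 54 genes lower and 0 higher by limma, where 9.65% of all genes tested were lower and 12.5% higher, and the median was -0.75. These were 8 of 14 H2B, 7 of 12 H4, 4 of 5 H1, 1 of 13 H2A and 0 of 10 H3 genes, and 5 of the H3 genes had an unadjusted p under 0.05. For 1 gene, Hist1h1e, every day 10 library was below every day 3 library, where 9.55% of all genes were, and 12 were at least 2-fold lower, where 1.35% of all genes were. With no filter on low values, 11 of 66 genes were lower, where 5.78% of all genes were, and 50 of 54 were lower with libraries 3 and 4 alone. The count was 37 without library 1 of day 3, 8, 5 and 4 without library 2, 3 or 4 of day 3, 44, 10 and 9 without library 2, 3 or 4 of day 10 and 13 without library 4 of day 1. Library 2 of day 10 was the highest of its day for 48 of the 54 genes. Ibsp, an osteoblast matrix gene, was picked out after its values were seen. It had 324, 1824, 35.5 and 19.7 CPM in libraries 1, 2, 3 and 4 of day 10. The summed histone level in these libraries was 4512, 5423, 3240 and 2548 CPM. Libraries 1 and 2 were above libraries 3 and 4 in both. Col1a1, also on the osteoblast list, did not split this way, with 15623, 61215, 7793 and 20013 CPM. The part of these genes in the histone values was not tested.

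The genes that make and break histone mRNAs moved in part. Of 26 listed genes, 14 were lower and 1 higher at day 5 against day 1, and 13 lower and 0 higher at day 10 against day 1, with medians of -0.56 and -0.44. Of all genes tested, 24.8% were lower and 25.2% higher at day 5, and 25.1% were lower and 24.3% higher at day 10. Slbp had 69.8, 72.8 and 69.5 CPM in the day 1 libraries, 41.3, 51.2, 57.6 and 55.6 CPM at day 3, 35.9, 35.2, 35.97 and 33.7 CPM at day 5 and 38.9, 36.5, 34.2 and 34.7 CPM at day 10. Slbp, the stem-loop binding protein gene, was below every day 1 library at each later day, with -0.95 (SE 0.108, limma, adjusted p = 7.07e-06) for day 10 minus day 1. Ccne1 and Ccne2, the E cyclins that drive entry into S phase and act on NPAT through Cdk2, fell at day 10 against day 1 with log2 differences of -1.71 and -2.03, and Cdk2 fell with -1.05. Eri1, an exonuclease that trims the histone mRNA end, fell with -0.78, Cpsf2, the CPSF100 subunit of the cleavage complex, with -0.93, and Casp8ap2 (FLASH), which joins the U7 particle, with -0.83.

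Other parts of that machinery did not pass at day 10 against day 1. Npat had -0.44 (SE 0.178, limma, adjusted p = 0.0509), Hinfp, the H4 promoter factor, 0.06 (SE 0.127, limma, adjusted p = 0.716), and Pou2f1, the octamer factor, 0.04 (SE 0.242, limma, adjusted p = 0.897). Cpsf3, the endonuclease that cuts the transcript, had -0.002 (SE 0.082, limma, adjusted p = 0.984) and Lsm10, a U7 particle protein, 0.15 (SE 0.148, limma, adjusted p = 0.405). Zcchc11, which adds uridines to histone mRNA, was higher at day 5 than at day 1, with 0.53 (SE 0.1196, limma, adjusted p = 0.00193).

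Variant histone genes, most of which give polyadenylated mRNAs, differed among themselves. Of 11 tested, 4 were lower at day 5 and 7 at day 10 against day 1, and 0 higher by limma, where 24.8% and 25.1% of all genes tested were lower. H2afz had 291, 263 and 271 CPM in the day 1 libraries, 107, 164, 155 and 162 CPM at day 3, 83.8, 75.8, 70.2 and 67.95 CPM at day 5 and 91.1, 120.4, 73.1 and 65.2 CPM at day 10. H2afz, the gene for H2A.Z, was below every day 1 library at days 5 and 10, with -1.68 (SE 0.185, limma, adjusted p = 5.7e-06) for day 10 minus day 1. H2afx, for the DNA damage variant H2A.X, which is known to give a stem-loop mRNA as well as a polyadenylated one, had -1.11 (SE 0.258, limma, adjusted p = 0.00248), and Cenpa, for the centromere H3 variant, -1.74 (SE 0.314, limma, adjusted p = 0.000361). H3f3a and H3f3b, which encode the replacement histone H3.3, had 0.13 and -0.25 at day 5 against day 1, neither past the threshold, and H3f3b passed at day 10 with -0.46 (SE 0.167, limma, adjusted p = 0.0337). H1f0, the H1 variant known from non-dividing cells, had 0.35 (SE 0.243, limma, adjusted p = 0.247).

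Histone chaperones and the proteins that bring histones to new DNA were lower in 17 of 23 listed genes at day 5 and 17 of 23 at day 10 against day 1, with 1 higher each, where 24.8% and 25.1% of all genes tested were lower. Asf1b had 34.8, 34.8 and 34.5 CPM in the day 1 libraries, 9.61, 14.6, 17.5 and 19.2 CPM at day 3, 8.22, 4.44, 6.16 and 6.83 CPM at day 5 and 11.97, 9.41, 6.02 and 7.23 CPM at day 10. Asf1b, a chaperone of newly made H3 and H4, had -1.93 (SE 0.241, limma, adjusted p = 1.65e-05) for day 10 minus day 1. Nasp, which stores H3 and H4, fell with a log2 difference of -1.56, Chaf1a, a subunit of chromatin assembly factor CAF-1, with -1.07, and Hat1, which acetylates new H4, with -1.25. Of the chaperones of H3.3, Hira fell with -0.45, while Daxx had -0.15 and Atrx -0.19, neither past the threshold. The 2 genes called higher were Ubn1 at day 5 (0.31) and Ipo4 at day 10 (0.39).

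Genes of S phase fell on the same days. All 31 listed genes were lower at day 5 and at day 10 than at day 1 by limma, with medians of -1.13 and -1.16 (22 of 31 and -0.62 at day 3). All 25 listed G2 and M phase genes were lower too, with medians of -1.96 and -1.91. Of all genes tested, 24.8% were lower at day 5, 25.1% at day 10 and 16.1% at day 3, each against day 1. Rrm2 had 329, 311 and 326 CPM in the day 1 libraries, 57.1, 83.3, 93.6 and 95.01 CPM at day 3, 59.00, 56.4, 52.3 and 47.9 CPM at day 5 and 80.4, 94.4, 56.03 and 55.6 CPM at day 10. Rrm2, a ribonucleotide reductase subunit needed for DNA synthesis, had no overlap of the later days with day 1. Per library, the S phase median at day 10 was -0.85, -0.94, -1.12 and -1.46, and that of the 54 histone genes -1.19, -0.72, -1.50 and -1.90, each against the day 1 mean.

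Other RNAs that lack a poly(A) tail were not called lower. Of 14 listed, such as the 7SK RNA (Rn7sk) and the RNase P and MRP RNAs (Rpph1 and Rmrp), 10 were tested, 0 were lower and 1 was higher at each of days 3, 5 and 10 against day 1 by limma, with medians of 0.42, 0.15 and 0.35. Of all genes tested, 16.1%, 24.8% and 25.1% were lower and 15.7%, 25.2% and 24.3% higher at days 3, 5 and 10. Of the 10 tested RNAs, 1 at day 5 and 2 at day 10 had an unadjusted p under 0.05, and neither edgeR nor DESeq2 called any lower on those days. Rn7sk had 1.04 (SE 0.327, limma, adjusted p = 0.0159) for day 5 minus day 1. Rmrp had 0.01 (SE 0.517, limma, adjusted p = 0.987) and Rpph1 0.17 (SE 0.926, limma, adjusted p = 0.891) for day 10 minus day 1. Rpph1 ran from 1080 to 16630 CPM among the day 10 libraries. Some of the tested RNAs were low, such as Rnu11 at 0.309 to 2.58 CPM, so a fall could be missed.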

How the data were processed

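The deposited table gives normalised CPM per gene and library, a scaled read signal. The submitters' processing notes name STAR, featureCounts, edgeR and GRCm38, and the deposited signal equals CPM scaled with edgeR's TMM factors. Whole reads were recovered for 100% of the deposited values (tolerance 0.001), with 12492537 to 18841621 reads per library; no column of another sample was present.

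Genes whose 4 day means averaged at least 1 CPM were tested with limma 3.58.1 (R 4.3.3) on log2(CPM + 1), with all 15 libraries in 1 fit, a trended prior and Benjamini-Hochberg adjustment over 12109 genes at 0.05. Differences on that scale understate the change of low genes, and the 2-fold counts use these differences. The quasi-likelihood test of edgeR 4.0.16 and DESeq2 1.42.0, run on the recovered reads, were alternatives. The fit was also run on simulated data, and the outcome is not given here.

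The members, gene lists and tests were chosen with earlier results of these data known. Named were the 3 members of highest mean per family, the lowest and the uncalled members, those at the filter, the polyadenylated and testis lists, and others said to be picked out later.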

Additional observations from a re-analysis of the deposited data

Results flagged for a closer look

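Among 81 groups of 4 libraries checked for a library far from the others of its day, 6 were picked out by Dixon's test, and chance alone picks about 1 in 20 groups. At day 3, library 1 was low for 3 genes. Hist1h2ak stood at 59.0 CPM there, against 118.8 to 128.0 CPM in the other day 3 libraries. Hist1h3c stood at 57.2 CPM, against 125.5 to 137.2 CPM, and Hist1h2bk at 69.4 CPM, against 120.1 to 127.8 CPM. Library 2 was high in the others: Hist1h1c at day 3 with 577 CPM, against 329.8 to 361 CPM, Hist1h4c at day 5 with 219.9 CPM, against 161.8 to 168.6 CPM, and Hist1h3e at day 10 with 157 CPM, against 88.4 to 99.0 CPM. The cause was not tested.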

How the results depend on the processing

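When libraries were left out, 46 to 52 genes were called lower at day 5 and 39 to 51 at day 10 against day 1, and other counts moved more: 0 to 31 (day 3 against day 1), 0 to 48 (day 5 against day 3) and 0 to 44 (day 10 against day 3). No filter on low values gave 7, 17 and 11 called genes for these last 3 comparisons. Libraries 1 and 2 alone, with 1 library at day 1, gave 0, 0 and 0 for them, 27 for day 5 and 3 for day 10 against day 1. Libraries 3 and 4 alone gave 50 for day 10 against day 3. A 2-fold threshold with no test was set on the differences of mean log2(CPM + 1) between days. It gave 2 for day 3 against day 1 and 12 for day 10 against day 3.

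Alternatives on the gene lists were chosen after seeing the data. At days 5 and 10 against day 1, libraries 1 and 2 alone gave 8 and 5 lower histone mRNA processing genes, 1 and 1 variant histone genes, 8 and 6 chaperones, and 16 S phase genes at day 10. The 2-fold threshold gave 3 and 3 processing genes, 5 and 6 chaperones, 19 and 19 S phase genes, and 3 variant histone genes at day 10. With libraries left out, variant histone genes at day 10 ranged over 2 to 7.

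Of same-numbered library pairs across days, 17 of 21 had deviations correlated over 0.1 (-0.067 to 0.727), while the 63 pairs of unlike number ran from -0.598 to 0.549. Since 4 same-numbered pairs did not pass 0.1, not every library correlated best with its own number, and no label ties the numbers to a culture or batch, whether they pair the libraries is not settled. A replicate block gave 24, 52, 52, 37 and 28 lower members, against 13, 50, 50, 32 and 20 without it, for day 3, 5 and 10 against day 1, day 5 against day 3 and day 10 against day 3, and 7 variant histone genes at day 5 against day 1, against 4 without it. It called 3 members higher at day 10 against day 5.

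Among 58 named genes in 6 comparisons under 30 settings, 1 of 10422 values reversed and passed the threshold: Cenpa, day 10 against day 5, at -0.541 with libraries 3 and 4 alone, against 0.062 with all libraries. Of the rest, 566 lost and 252 gained a call. The cause of these changes was not tested.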
